A study of Homo sapiens with 12 samples.

Results

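The bone morphogenetic protein (BMP), transforming growth factor beta (TGF-beta) and activin pathway was examined through 42 of its genes, selected by gene symbol from the 61806 genes of the expression table. They comprise 6 BMP ligands, 3 TGF-beta ligands, 5 activin and nodal ligands with the LEFTY inhibitors, 10 receptors, 8 SMAD genes, 4 ID genes and 6 genes for extracellular antagonists, a pseudoreceptor and a latency protein. All 42 had a row of their own in the table.

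Ligands of this family bind pairs of type I and type II serine/threonine kinase receptors. Receptors for BMPs phosphorylate SMAD1, SMAD5 and SMAD9, whereas receptors for TGF-beta, activin and nodal phosphorylate SMAD2 and SMAD3. Both branches share SMAD4 and are restrained by the inhibitory SMAD6 and SMAD7. In heart development, BMP ligands help to specify cardiac mesoderm, and TGF-beta ligands act in cushion formation and in the connective tissue of the heart.

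RNA was sequenced from H1, an established wild-type human embryonic stem cell line, after differentiation through mesendoderm. All cultures received the WNT agonist CHIR-99021 at the start and insulin on the following day, according to the study's methods. In the static group, NP-IWP2, the cells were not passaged and were given IWP2, an inhibitor of WNT secretion. Pass-ctrl cells were passaged on Day 2 and left to differentiate spontaneously, and Pass-IWP2 cells were passaged on Day 2 and received IWP2. Each of the 3 treatments was sampled on Day 12 and on Day 16 with 2 libraries, 12 in all. Nothing in the labels says that the libraries came from separate cultures, so the p-values measure the spread between these libraries, which may be technical. Pass-ctrl differed from NP-IWP2 in both passaging and IWP2, which cannot be told apart in that comparison, and static cells without IWP2 were not analysed here. In the study, passaged cells were replated in new wells at a set split ratio, and a ROCK inhibitor was added in its later differentiations. The parts of replating density and of this inhibitor in the differences of both passaged groups were not tested. Both passaged groups were compared with the same NP-IWP2 libraries, so their results are not independent of each other.

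The libraries held 14885589 to 19176239 counted reads. The label calls the cells embryonic stem cells, but the pluripotency genes POU5F1 and NANOG were at 0.05 FPKM (reads scaled to exon length and to the counted reads of the library) or less in all 12 libraries. SOX2 was at 0.77 FPKM or less, while LIN28A (16.1 and 18.7 FPKM), DPPA4 (3.36 and 3.78 FPKM) and ZFP42 (2.09 and 1.93 FPKM) were detected in static cells of Day 12, and all 3 were at 1.61 FPKM or less in passaged cells of Day 16. The summed level of 10 cardiomyocyte genes was 2199 to 9594 FPKM. Replicates of a group differed by an SD of 0.37 to 0.57 in log2 CPM (counts scaled to the library total) across genes, except for the Pass-IWP2 libraries of Day 12, where it was 1.184. In that pair, replicate 5 stood apart from the other 11 libraries: the cardiac transcription factor gene HAND1 was at 0.26 FPKM in it and at 72.4 to 159 FPKM elsewhere. For some of the results that rest on replicate 5, values without it are also given.

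Of the 42 genes, 35 exceeded 1 FPKM in some library and 7 did not, and 41 passed the filter on low counts. The gene left out was INHBB, an activin subunit gene with at most 6 reads in a library. The highest levels per length in static cells on Day 12 belonged to BAMBI (196 FPKM), ID2 (191 FPKM) and ID3 (187 FPKM), group means of 2 libraries. On Day 16 the ranking in Pass-ctrl was led by BMP5 (142 FPKM), LTBP1 (104 FPKM) and BAMBI (93.9 FPKM), and the best-placed ID gene was ID2 (64.5 FPKM).

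The number of pathway genes that differed between passaged and static cells was larger on Day 16 than on Day 12. So was the share called among all genes tested. In Pass-ctrl against NP-IWP2 on Day 12, edgeR's quasi-likelihood test at a Benjamini-Hochberg adjusted p of 0.05 called 6 of 41 genes lower and 0 higher, while of all 19505 genes tested it called 4.01% (3.32% lower and 0.697% higher). On Day 16 it called 10 genes lower and 3 higher, against 9.86% and 5.39% of all genes tested (15.3% together). In Pass-IWP2 against NP-IWP2, 1 gene was lower and 0 were higher on Day 12, when 1.66% of all genes tested were called (1.33% lower and 0.328% higher). On Day 16 there were 13 lower and 4 higher, against 9.95% and 7.15% (17.1% together). The median log2 fold change (log2FC) of the 41 genes on Day 16 was -0.13 in Pass-ctrl and -0.21 in Pass-IWP2, and that of all genes tested was -0.02 and -0.03.

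Counts on both days depended on the divergent pair, which enters the common fit. Without replicate 5 the test called 17 of the 41 genes in Pass-ctrl on Day 12 (5 higher and 12 lower, with 8.25% and 13.6% of all 20518 genes tested, 21.9% together) and 15 in Pass-IWP2 (5 higher and 10 lower, with 5.45% and 9.57%, 15.0% together). On Day 16 it then called 22 genes in Pass-ctrl (6 higher and 16 lower, with 14.4% and 18.1%, 32.4% together) and 23 in Pass-IWP2 (5 higher and 18 lower, with 16.3% and 18.5%, 34.8% together). Calls in Pass-ctrl also rose when replicate 6 of that pair was left out instead, for which the share over all genes is not given. The cause of the higher counts was not tested. Groups of 2 often did not overlap: over all genes tested with 12 libraries, both Pass-ctrl libraries were above both static ones for 31.8% of genes on Day 12 and 33.3% on Day 16, and below for 34.2% and 35.7%. For Pass-IWP2 the shares were 15.6% and 30.6% above and 20.1% and 34.6% below.

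Among the BMP ligands, BMP4 and BMP10 were lower in passaged cells. BMP4 acts in mesoderm induction and early heart development. In NP-IWP2 it was at 29.8 and 31.7 FPKM on Day 12 and at 23.0 and 23.5 FPKM on Day 16. Pass-ctrl libraries were at 1.26 and 1.15 FPKM on Day 12 and at 1.20 and 0.59 FPKM on Day 16. Pass-IWP2 libraries were at 26.3 and 1.86 FPKM on Day 12 and at 0.70 and 0.76 FPKM on Day 16. All passaged libraries were therefore low except replicate 5 of Pass-IWP2 on Day 12, which was near the static level.

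BMP4 was lower in Pass-ctrl with a log2FC of -4.58 ± 0.92 (SE) on Day 12 (edgeR, adjusted p = 0.0305) and -4.47 ± 0.92 on Day 16 (edgeR, adjusted p = 0.0134). In Pass-IWP2 it was lower by -4.72 ± 0.94 on Day 16 (edgeR, adjusted p = 0.0107). The Day 12 difference in Pass-IWP2 was -1.24 (edgeR, adjusted p = 0.627), and -3.96 without replicate 5 (edgeR, adjusted p = 7.32e-07). The Day 12 call in Pass-ctrl held in 2 of the 12 fits that left out 1 library, with a highest adjusted p of 0.235 in edgeR and log2FC values between -4.68 and -4.51. On Day 16 it was lost without NP-IWP2 replicate 2 or either Pass-ctrl library (highest adjusted p 0.131 in edgeR), and in Pass-IWP2 without either Pass-IWP2 library (0.0868). An antisense gene that overlaps BMP4 held 173 reads against 7446 for BMP4 over the 12 libraries, and the strand setting of the counting is not given in the sources used here.

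BMP2, a ligand that patterns the atrioventricular canal and promotes cardiac specification, took a different course over time. NP-IWP2 libraries were at 55.5 and 52.4 FPKM on Day 12 and at 17.7 and 18.5 FPKM on Day 16. Pass-ctrl libraries were at 93.4 and 119.5 FPKM on Day 12, above the static libraries, and at 8.78 and 8.61 FPKM on Day 16, below them. Pass-IWP2 libraries were at 34.1 and 102.3 FPKM on Day 12, on both sides of the static level, and at 13.1 and 8.88 FPKM on Day 16.

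With all 12 libraries none of the passaged against static differences of BMP2 passed the test. The log2FC in Pass-ctrl was 1.07 on Day 12 (edgeR, adjusted p = 0.203) and -0.83 on Day 16 (edgeR, adjusted p = 0.237). Without replicate 5 these were 1.06 and -0.83, with edgeR adjusted p of 1.01e-04 and 6.60e-04, and the difference between the days was -1.89 (edgeR, adjusted p = 1.64e-04). In Pass-IWP2 the values without replicate 5 were 1.01 on Day 12 and -0.45 on Day 16, with a difference between the days of -1.47 (edgeR, adjusted p = 0.00116).

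BMP10, a ligand of trabecular cardiomyocytes, was low throughout. Its NP-IWP2 libraries were at 0.97 and 0.77 FPKM on Day 12 and at 1.13 and 0.79 FPKM on Day 16. Pass-ctrl had 0.07 and 0.06 FPKM on Day 12 and 0.00 and 0.04 FPKM on Day 16. Pass-IWP2 had 0.38 and 0.15 FPKM on Day 12 and 0.15 and 0.26 FPKM on Day 16. No passaged library reached the static range. BMP10 was lower in Pass-ctrl on Day 12 (log2FC -3.65 ± 0.66; edgeR, adjusted p = 0.0214) and on Day 16 (-5.34 ± 0.78; edgeR, adjusted p = 0.00303), and lower in Pass-IWP2 on Day 16 (-1.96 ± 0.57; edgeR, adjusted p = 0.0446). The Day 12 call in Pass-ctrl was lost when any of the 4 libraries compared was left out, and the Day 16 call in Pass-IWP2 was lost in 8 of 12 such fits, with edgeR adjusted p up to 0.197. The Day 16 log2FC in Pass-ctrl ran from -9.61 without Pass-ctrl replicate 4, which leaves the library listed at 0, to -4.44 without replicate 3.

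The most abundant ligand was BMP5, which is expressed in the embryonic myocardium. It was at 154 to 163 FPKM in the 4 NP-IWP2 libraries and at 106 to 221 FPKM in the 8 passaged ones, and was not called in any comparison of passaged with static cells. BMP7 was at 25.5 to 38.8 FPKM in NP-IWP2 and at 14.4 to 50.6 FPKM in passaged libraries, the lowest of which was replicate 5 of Day 12. It was not called either. BMP6, a ligand known for hepcidin control, was at 0.34 and 0.36 FPKM in NP-IWP2, 0.02 and 0.07 FPKM in Pass-ctrl, and 0.19 and 0.03 FPKM in Pass-IWP2 on Day 12. On Day 16 the values were 0.11 and 0.15 FPKM in NP-IWP2, 0 and 0.03 FPKM in Pass-ctrl, and 0 in both Pass-IWP2 libraries, where it was called at least 2.5-fold lower than in static cells (edgeR, adjusted p = 0.0423, kept in 3 of 12 fits leaving out 1 library).

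**Figure D1:**
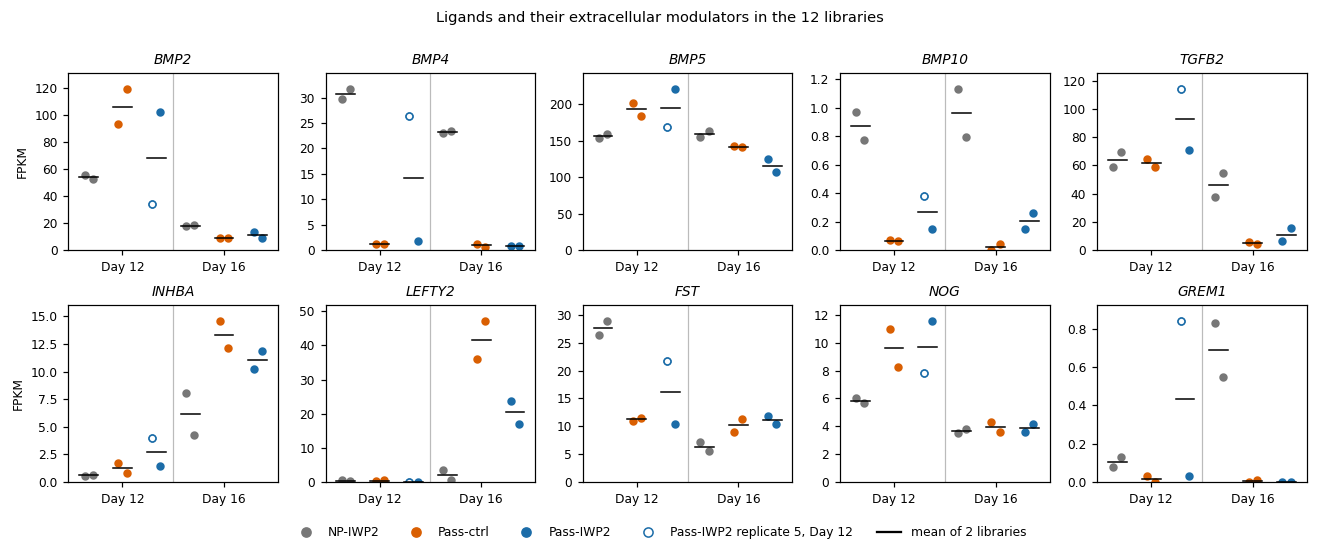
Levels (FPKM, vertical axes starting at 0) of 10 genes for ligands and their extracellular modulators in each of the 12 libraries, with Day 12 left and Day 16 right of the grey line. Points are libraries, black bars are means of 2 libraries, and the open circle is Pass-IWP2 replicate 5 of Day 12. BMP4 is at 23.0 to 31.7 FPKM in the static libraries and at 1.86 FPKM or less in all passaged libraries but the open circle, and LEFTY2 is at 17.0 FPKM or more in the 4 passaged libraries of Day 16 and at 3.55 FPKM or less in the other 8.

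Of the TGF-beta ligands, TGFB2 fell between the days in passaged cells. TGFB2 drives the formation of cardiac cushion mesenchyme. On Day 12 it was at 58.7 and 69.5 FPKM in NP-IWP2, 64.3 and 58.6 FPKM in Pass-ctrl, and 114 and 71.2 FPKM in Pass-IWP2, so static and Pass-ctrl libraries overlapped. The Day 16 libraries were at 37.9 and 54.4 FPKM in NP-IWP2, at 5.46 and 4.40 FPKM in Pass-ctrl, and at 6.65 and 15.3 FPKM in Pass-IWP2. The groups no longer overlapped.

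The Day 16 log2FC of TGFB2 was -2.99 ± 0.39 in Pass-ctrl (edgeR, adjusted p = 0.00179) and -1.76 ± 0.37 in Pass-IWP2 (edgeR, adjusted p = 0.0129). The first was called in all 12 fits that left out 1 library, and the second was lost without NP-IWP2 replicate 2 (edgeR, adjusted p = 0.0904) and ranged from -2.58 to -1.25 depending on which Pass-IWP2 library remained. Over time TGFB2 fell by 3.38 on the log2 scale in Pass-ctrl (edgeR, adjusted p = 0.00135) and by 2.62 in Pass-IWP2 (edgeR, adjusted p = 0.0026).

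TGFB1, which acts on fibroblasts and immune cells, was at 23.1 and 26.6 FPKM in NP-IWP2 on Day 12, 11.9 and 13.4 FPKM in Pass-ctrl, and 25.9 and 13.7 FPKM in Pass-IWP2. It was lower in Pass-ctrl on Day 12 (log2FC -0.89 ± 0.20; edgeR, adjusted p = 0.0419), a call that held in 2 of 12 fits leaving out 1 library. On Day 16 the range was 20.7 to 21.2 FPKM in static and 14.4 to 17.5 FPKM in passaged libraries, and it was not called. The opposite strand of TGFB1 carries HNRNPUL1 and CCDC97, with 53761 and 6037 reads against 12144 for TGFB1, and without knowledge of the strand setting their reads cannot be told apart where they overlap. TGFB3 was at 2.81 to 5.68 FPKM and was not called in any comparison of passaged with static cells.

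LEFTY2 showed the largest rise among the 42 genes. LEFTY proteins inhibit nodal signaling, and their genes are themselves induced by it. On Day 12 all 6 libraries were at 0.47 FPKM or less. On Day 16 LEFTY2 was at 3.55 and 0.71 FPKM in NP-IWP2, at 35.9 and 47.1 FPKM in Pass-ctrl, and at 23.8 and 17.0 FPKM in Pass-IWP2. The 4 passaged libraries lay above both static ones.

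On Day 16 LEFTY2 was higher by a log2FC of 4.47 ± 0.61 in Pass-ctrl (edgeR, adjusted p = 0.0022) and 3.48 ± 0.59 in Pass-IWP2 (edgeR, adjusted p = 0.00557), and both calls held in all 12 fits that left out 1 library. The size of the difference depended on the static replicates, which were far apart: without NP-IWP2 replicate 1 the log2FC was 6.16 and 5.17, and without replicate 2 it was 3.72 and 2.73. From Day 12 to Day 16 LEFTY2 rose by 7.18 in Pass-ctrl (edgeR, adjusted p = 8.50e-04) and by 7.34 in Pass-IWP2 (edgeR, adjusted p = 8.80e-04). In NP-IWP2 it was not called with 12 libraries, and without replicate 5 the rise was 2.74 (edgeR, adjusted p = 0.0141). Its close paralog LEFTY1 was at 0.76 FPKM or less everywhere, and reads of the pair could be split by the counting.

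NODAL, the ligand that LEFTY proteins oppose, was at 0.61 FPKM or less in all libraries and was not called in the comparisons of passaged with static cells. INHBA, which encodes the subunit of activin A, was at 0.54 and 0.67 FPKM in NP-IWP2, 1.76 and 0.83 FPKM in Pass-ctrl, and 4.03 and 1.49 FPKM in Pass-IWP2 on Day 12. Day 16 levels were 8.06 and 4.24 FPKM in NP-IWP2, 14.6 and 12.1 FPKM in Pass-ctrl, and 10.3 and 11.9 FPKM in Pass-IWP2. On both days every passaged library exceeded both static ones, but none of the 4 differences passed the test with 12 libraries. Their log2FC was 1.19 and 2.12 on Day 12 and 1.33 and 1.11 on Day 16, with edgeR adjusted p of 0.216, 0.0863, 0.0787 and 0.12. Without replicate 5, 3 of the 4 passed, and the Day 12 difference in Pass-IWP2 was 1.39 (edgeR, adjusted p = 0.059).

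INHBA rose over time in all treatments, by 3.48 ± 0.52 in NP-IWP2 (edgeR, adjusted p = 0.018), 3.62 ± 0.51 in Pass-ctrl (edgeR, adjusted p = 0.00296) and 2.46 ± 0.48 in Pass-IWP2 (edgeR, adjusted p = 0.00767). The NP-IWP2 call was lost when any of its 4 libraries was left out (edgeR, adjusted p up to 0.211). In Pass-IWP2 it was lost without the Day 16 replicate 6 (edgeR, adjusted p = 0.0552).

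Among the receptors, TGFBR3 and TGFBR1 were lower in passaged cells. TGFBR3 encodes betaglycan, a co-receptor that presents TGF-beta ligands and binds inhibin. It was at 11.3 and 10.8 FPKM in NP-IWP2 on Day 12 and at 13.5 and 14.4 FPKM on Day 16. Pass-ctrl had 0.92 and 1.40 FPKM on Day 12 and 0.55 and 0.65 FPKM on Day 16, and Pass-IWP2 had 1.36 and 1.16 FPKM, then 0.43 and 0.42 FPKM. Static and passaged libraries were separated by a wide gap on both days, and replicate 5 was low together with the other passaged libraries.

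With all 12 libraries TGFBR3 was the only gene called in all 4 comparisons of passaged with static cells. BMP4, BMP10, SMAD6 and FST lacked only the Day 12 call in Pass-IWP2, the group of replicate 5. Without that library the log2FC of BMP4 there was -3.96. The log2FC of TGFBR3 was -3.16 ± 0.18 in Pass-ctrl and -3.15 ± 0.18 in Pass-IWP2 on Day 12 (edgeR, adjusted p = 9.02e-05 and 9.25e-05). On Day 16 it was -4.30 ± 0.19 and -4.76 ± 0.20 (edgeR, adjusted p = 1.55e-05 and 9.69e-06). Each of the 4 TGFBR3 calls held in all 12 fits that left out 1 library.

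TGFBR1, the type I receptor for TGF-beta, was at 15.4 and 16.7 FPKM in NP-IWP2, 11.3 and 11.2 FPKM in Pass-ctrl, and 22.9 and 11.3 FPKM in Pass-IWP2 on Day 12. On Day 16 the values were 22.8 and 24.0 FPKM in NP-IWP2, 7.39 and 6.93 FPKM in Pass-ctrl, and 6.41 and 6.49 FPKM in Pass-IWP2. On Day 12 the groups overlapped in Pass-IWP2, and on Day 16 every passaged library was below both static ones. The Day 16 log2FC was -1.48 ± 0.21 in Pass-ctrl (edgeR, adjusted p = 0.00287) and -1.58 ± 0.21 in Pass-IWP2 (edgeR, adjusted p = 0.00214), and both calls held in all 12 fits with 1 library left out. The type II receptor gene TGFBR2 was at 2.89 to 6.01 FPKM and was not called in any comparison with 12 libraries.

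BMPR1A, a type I receptor needed for heart development, was at 17.8 to 19.2 FPKM in all Day 12 libraries. The Day 16 libraries were at 14.1 and 14.9 FPKM in NP-IWP2, 16.2 and 17.5 FPKM in Pass-ctrl, and 16.1 and 15.8 FPKM in Pass-IWP2. It was called higher in both passaged groups, by 0.45 ± 0.11 (edgeR, adjusted p = 0.0248) and 0.41 ± 0.11 (edgeR, adjusted p = 0.0309). They were kept in 4 and 2 of 12 fits that left out 1 library, and depended on the scaling. With total counts in place of TMM, which lowered the median of all genes to -0.25 and -0.31, the log2FC of BMPR1A was 0.22 and 0.14 (edgeR, adjusted p = 0.159 and 0.346).

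BMPR1B, the second BMP type I receptor gene, was at 0.38 to 0.95 FPKM in the 4 NP-IWP2 libraries, at 0.72 FPKM in replicate 5 and at 0.03 to 0.12 FPKM in the other 7 passaged libraries. It was lower in Pass-IWP2 on Day 16 (log2FC -3.62 ± 0.99; edgeR, adjusted p = 0.036), a call kept in 2 of 12 fits leaving out 1 library. The difference in Pass-ctrl was -3.42 on Day 12 and -2.69 on Day 16 (edgeR, adjusted p = 0.104 and 0.0786). ACVR1, a type I receptor for BMP and activin ligands, was at 3.33 and 3.39 FPKM in NP-IWP2, 2.81 and 2.17 FPKM in Pass-ctrl, and 4.56 and 2.97 FPKM in Pass-IWP2 on Day 12. By Day 16 ACVR1 was at 2.73 and 3.14 FPKM in NP-IWP2, 1.80 FPKM or less in both Pass-ctrl libraries, and 1.56 and 1.49 FPKM in Pass-IWP2, with all passaged libraries below the static ones. ACVR1 was called lower in Pass-IWP2 on Day 16 (log2FC -0.67 ± 0.18; edgeR, adjusted p = 0.0335, kept in 4 of 12 fits). BMPR2, ACVR2A and ACVR2B, the type II receptor genes for BMPs and activins, were at 14.2 to 23.7, 3.12 to 9.41 and 5.78 to 14.2 FPKM and were not called between passaged and static cells.

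ACVRL1, the endothelial type I receptor ALK1, was at 0.40 and 0.58 FPKM in NP-IWP2 on Day 12 and at 0 in both Pass-ctrl libraries, at least 11.6-fold lower by the floor of 3 counts per library. It was not called with 12 libraries (edgeR, adjusted p = 0.0838). Endothelial markers moved with it on Day 12: PECAM1 was at 1.84 FPKM or more in NP-IWP2 and 0.01 FPKM in both Pass-ctrl libraries, CDH5 at 4.73 and 6.05 against 0.07 and 0.02 FPKM, and TEK at 11.5 and 10.9 against 0.10 and 0.01 FPKM. TIE1 and ERG were at 1.08 FPKM or more against 0.03 FPKM or less, and the remaining marker of the list of 6, KDR, was at 177 and 156 against 224 and 161 FPKM. The sum of the list was 180 and 199 FPKM in NP-IWP2 and 161 and 224 FPKM in Pass-ctrl, and at most 3 reads were counted for 3 and 5 of the 6 markers in the Pass-ctrl libraries. In replicate 5 of Pass-IWP2, ACVRL1 was at 0.31 FPKM with PECAM1 at 1.18, CDH5 at 2.60 and TEK at 1.45 FPKM. The part of these markers in the ACVRL1 result was not tested. ORC4, on the opposite strand of ACVR2A, held 9413 reads against 6498 for ACVR2A, so part of the ACVR2A count is uncertain.

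**Figure D2:**
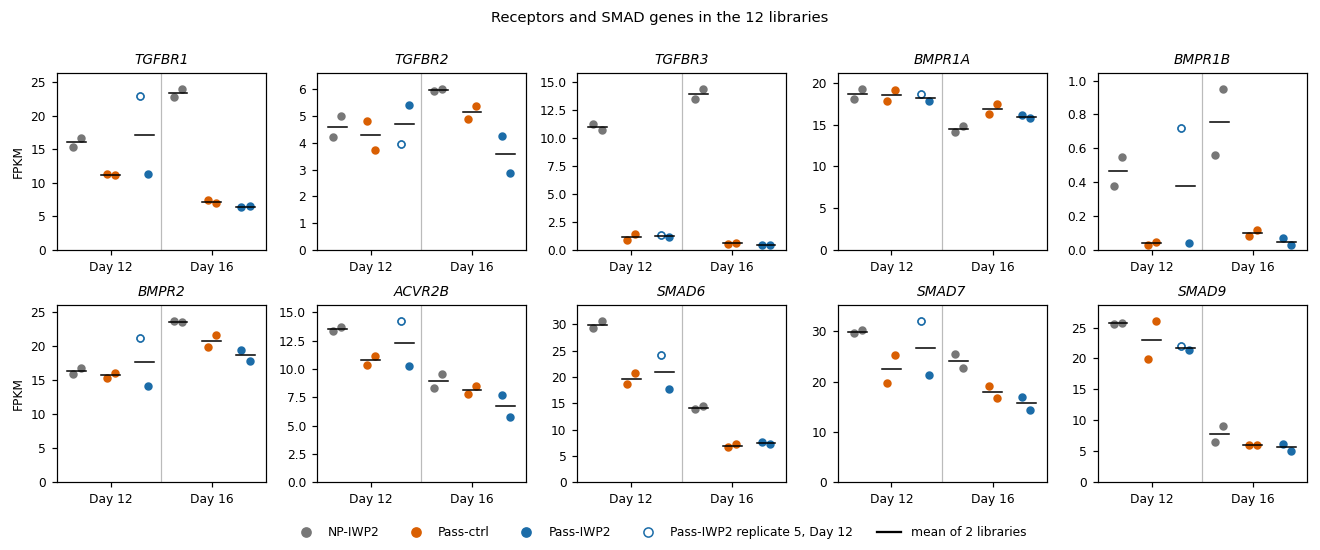
Levels (FPKM, vertical axes starting at 0) of 7 receptor genes and 3 SMAD genes in each of the 12 libraries, with Day 12 left and Day 16 right of the grey line. Points are libraries, bars are means of 2 libraries, and the open circle is Pass-IWP2 replicate 5 of Day 12. TGFBR3 is at 10.8 FPKM or more in the static libraries and at 1.40 FPKM or less in the passaged ones, whereas BMPR1A stays between 14.1 and 19.2 FPKM.

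Of the 8 SMAD genes tested, 1 was lower in Pass-ctrl on each day (3.32% and 9.86% of all genes tested), and 1 was lower and 1 higher in Pass-IWP2 on Day 16 (9.95% and 7.15%). SMAD6, an inhibitory SMAD induced by BMP signaling, was at 29.3 and 30.6 FPKM in NP-IWP2, 18.7 and 20.7 FPKM in Pass-ctrl, and 24.3 and 17.7 FPKM in Pass-IWP2 on Day 12. Day 16 levels were 13.8 and 14.5 FPKM in NP-IWP2, 6.61 and 7.25 FPKM in Pass-ctrl, and 7.63 and 7.19 FPKM in Pass-IWP2. All passaged libraries were below the static ones of the same day.

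SMAD6 was lower in Pass-ctrl on Day 12 (log2FC -0.52 ± 0.11; edgeR, adjusted p = 0.0401) and on Day 16 (-0.80 ± 0.12; edgeR, adjusted p = 0.00295) and in Pass-IWP2 on Day 16 (-0.66 ± 0.12; edgeR, adjusted p = 0.00636). Both Day 16 calls held in all 12 fits leaving out 1 library, and the Day 12 call in 2 of them. The other inhibitory SMAD gene, SMAD7, was at 22.7 to 30.2 FPKM in static and 14.3 to 32.0 FPKM in passaged libraries and was not called with 12 libraries.

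SMAD2, a mediator of TGF-beta and activin signals, was at 3.45 and 3.47 FPKM in NP-IWP2, 3.39 and 5.97 FPKM in Pass-ctrl, and 5.31 and 3.13 FPKM in Pass-IWP2 on Day 12. By Day 16 these were 2.83 and 3.14 FPKM, 3.30 and 4.00 FPKM, and 5.35 and 4.03 FPKM. SMAD2 was called higher in Pass-IWP2 on Day 16 (log2FC 0.92 ± 0.26; edgeR, adjusted p = 0.0391, kept in 4 of 12 fits), a difference of 0.65 with total counts (edgeR, adjusted p = 0.147). The Day 12 replicates of both passaged groups were as far apart as the groups of Day 16. SMAD1, SMAD3, SMAD4, SMAD5 and SMAD9 were not called between passaged and static cells. SMAD9 fell over time in all 3 treatments, from 19.9 to 26.0 FPKM on Day 12 to 5.00 to 9.13 FPKM on Day 16, with log2FC of -1.62 in NP-IWP2, -1.68 in Pass-ctrl and -1.55 in Pass-IWP2 (edgeR, adjusted p = 0.00621, 7.98e-04 and 8.34e-04).

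On Day 16, 3 of the 4 ID genes were called lower in both passaged groups, against 9.86% and 9.95% of all genes tested in Pass-ctrl and Pass-IWP2. ID proteins bind basic helix-loop-helix transcription factors and keep them off DNA, and ID1, ID2 and ID3 are classical direct targets of BMP and SMAD signaling. On Day 12, 0 of the 4 were called in either group, against 4.01% and 1.66% of all genes tested. ID1, ID3 and ID4 were the 3 called on Day 16. The median log2FC of the group on Day 16 was -2.31 in Pass-ctrl and -1.97 in Pass-IWP2, with -0.02 and -0.03 over all genes tested.

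The bases upstream of the 4 ID genes are shown because 3 of these genes moved together and ID2 moved less. They are the 250 bases before the annotated start in RefSeq (GRCh38.p14), at chr20:31605039-31605288 (plus strand) for ID1, chr2:8681806-8682055 (plus) for ID2, chr1:23559502-23559751 (minus) for ID3 and chr6:19837120-19837369 (plus) for ID4. The letters CAGAC, an extended SMAD-binding motif, are in capitals.
ID1: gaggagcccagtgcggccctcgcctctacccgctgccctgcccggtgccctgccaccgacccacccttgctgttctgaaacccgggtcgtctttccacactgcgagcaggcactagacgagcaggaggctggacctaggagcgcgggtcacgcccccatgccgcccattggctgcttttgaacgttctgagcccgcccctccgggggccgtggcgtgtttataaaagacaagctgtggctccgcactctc
ID2: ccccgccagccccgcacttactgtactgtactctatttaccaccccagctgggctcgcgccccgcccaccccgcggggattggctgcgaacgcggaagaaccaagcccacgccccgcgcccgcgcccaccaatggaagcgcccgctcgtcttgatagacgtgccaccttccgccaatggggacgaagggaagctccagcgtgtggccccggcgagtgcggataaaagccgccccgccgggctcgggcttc
ID3: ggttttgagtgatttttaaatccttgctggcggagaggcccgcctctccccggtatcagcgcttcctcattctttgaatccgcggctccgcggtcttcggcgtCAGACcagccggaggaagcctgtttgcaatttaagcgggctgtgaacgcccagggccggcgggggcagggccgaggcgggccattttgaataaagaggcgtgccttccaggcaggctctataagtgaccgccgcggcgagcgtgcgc
ID4: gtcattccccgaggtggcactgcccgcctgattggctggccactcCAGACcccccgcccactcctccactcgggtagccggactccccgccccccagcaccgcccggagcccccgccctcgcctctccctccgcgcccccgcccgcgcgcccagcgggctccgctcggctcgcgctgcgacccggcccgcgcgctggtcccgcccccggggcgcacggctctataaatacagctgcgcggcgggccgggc

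On either strand, CAGAC occurred 1 time each in the windows of ID3 and ID4 and 0 times in those of ID1 and ID2, while 38.0% of 34788 windows of this length held it. The letters GGCGCC, a BMP-responsive SMAD motif, occurred 0 times in the 4 windows and in 16.4% of all. Neither motif overlaps the other. ID2, without a call on Day 16, and ID1, with one, both lacked these letters in this window.

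ID1 was at 121 and 116 FPKM in NP-IWP2, 93.3 and 98.2 FPKM in Pass-ctrl, and 124 and 112 FPKM in Pass-IWP2 on Day 12. The Day 16 libraries were at 99.1 and 117 FPKM in NP-IWP2, 23.2 and 14.5 FPKM in Pass-ctrl, and 25.8 and 17.3 FPKM in Pass-IWP2. On Day 16 all 4 passaged libraries were far below both static ones. The Day 16 log2FC was -2.29 ± 0.21 in Pass-ctrl (edgeR, adjusted p = 3.68e-04) and -2.06 ± 0.21 in Pass-IWP2 (edgeR, adjusted p = 5.21e-04).

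ID3 was at 183 and 191 FPKM in NP-IWP2, 123 and 123 FPKM in Pass-ctrl, and 229 and 138 FPKM in Pass-IWP2 on Day 12. Day 16 levels were 104 and 139 FPKM in NP-IWP2, 22.5 and 18.5 FPKM in Pass-ctrl, and 27.5 and 26.8 FPKM in Pass-IWP2. Pass-ctrl was already below the static level on Day 12, with a log2FC of -0.52 that passed the test only without replicate 5 (edgeR, adjusted p = 0.132 with it and 0.00614 without). The Day 16 log2FC was -2.33 ± 0.19 in Pass-ctrl (edgeR, adjusted p = 1.81e-04) and -1.88 ± 0.18 in Pass-IWP2 (edgeR, adjusted p = 4.53e-04).

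ID4 was at 43.7 and 49.7 FPKM in NP-IWP2, 49.3 and 46.7 FPKM in Pass-ctrl, and 121 and 58.3 FPKM in Pass-IWP2 on Day 12, and the highest value was that of replicate 5. The Day 16 libraries were at 63.5 and 84.6 FPKM in NP-IWP2, 10.2 and 8.92 FPKM in Pass-ctrl, and 9.11 and 6.88 FPKM in Pass-IWP2. Pass-ctrl and static libraries overlapped on Day 12 and were far apart on Day 16. The Day 16 log2FC was -2.72 ± 0.26 in Pass-ctrl (edgeR, adjusted p = 4.18e-04) and -2.93 ± 0.26 in Pass-IWP2 (edgeR, adjusted p = 3.46e-04). All 6 Day 16 calls of ID1, ID3 and ID4 held in all 12 fits that left out 1 library.

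ID2 was at 188 and 194 FPKM in NP-IWP2, 138 and 156 FPKM in Pass-ctrl, and 174 and 141 FPKM in Pass-IWP2 on Day 12. Day 16 levels were 98.2 and 110.2 FPKM in NP-IWP2, 56.0 and 73.0 FPKM in Pass-ctrl, and 89.7 and 74.9 FPKM in Pass-IWP2. Its difference on Day 16 in Pass-ctrl was -0.46 ± 0.15 (edgeR, adjusted p = 0.0641). Over time in static cells ID2 was the 1 ID gene called with 12 libraries, at -0.76 ± 0.15 (edgeR, adjusted p = 0.0374), a call kept in 5 of 12 fits leaving out 1 library (adjusted p up to 0.307). Without replicate 5 of Pass-IWP2, ID3 was also called lower over time in static cells (-0.52; edgeR, adjusted p = 0.0101) and ID4 higher (0.77; edgeR, adjusted p = 0.00154). The antisense gene ID2-AS1 held 4860 reads against 55437 for ID2.

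**Figure D3:**
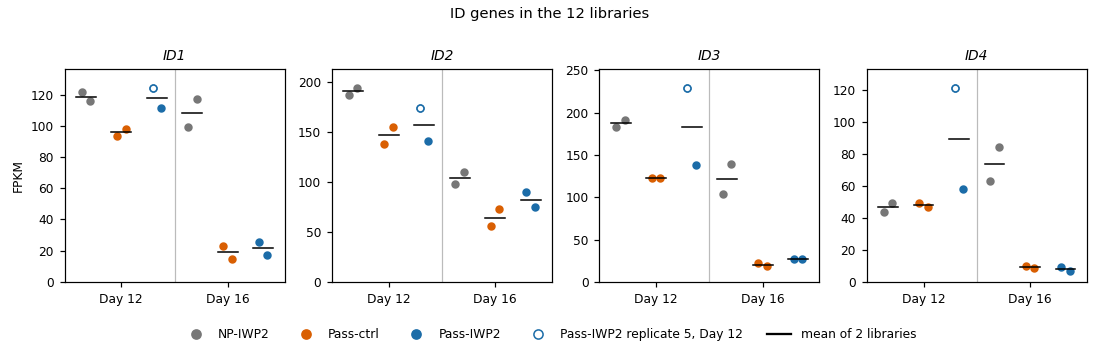
Levels (FPKM, vertical axes starting at 0) of the 4 ID genes in each of the 12 libraries, with Day 12 left and Day 16 right of the grey line. Points are libraries, bars are means of 2 libraries, and the open circle is Pass-IWP2 replicate 5 of Day 12. On Day 16 the 4 passaged libraries of ID1, ID3 and ID4 are at 27.5 FPKM or less and the 2 static libraries at 63.5 FPKM or more.

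Of the antagonists, FST and GREM1 were called between passaged and static cells. FST encodes follistatin, which binds activins and some BMPs. On Day 12 it was at 26.3 and 28.9 FPKM in NP-IWP2, 11.0 and 11.6 FPKM in Pass-ctrl, and 21.8 and 10.5 FPKM in Pass-IWP2. The Day 16 libraries were at 7.18 and 5.56 FPKM in NP-IWP2, 9.07 and 11.4 FPKM in Pass-ctrl, and 11.8 and 10.4 FPKM in Pass-IWP2. Passaged libraries were below the static ones on Day 12 and above them on Day 16.

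FST was lower in Pass-ctrl on Day 12 (log2FC -1.20 ± 0.26; edgeR, adjusted p = 0.0367) and higher on Day 16 in Pass-ctrl (0.91 ± 0.26; edgeR, adjusted p = 0.044) and in Pass-IWP2 (1.07 ± 0.26; edgeR, adjusted p = 0.0232). In Pass-ctrl each of these calls held in 2 of 12 fits that left out 1 library. With total counts the Day 16 differences were 0.68 and 0.80 (edgeR, adjusted p = 0.139 and 0.0811). In Pass-IWP2 the Day 16 call was lost without NP-IWP2 replicate 2 or either Pass-IWP2 library (edgeR, adjusted p up to 0.173). Over time FST fell by 1.99 in static cells (edgeR, adjusted p = 0.0124) and was not called in passaged ones.

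GREM1, a BMP antagonist of limb and mesenchyme, was at 0.83 and 0.55 FPKM in NP-IWP2 on Day 16, at 0 and 0.01 FPKM in Pass-ctrl, and at 0 in both Pass-IWP2 libraries. On Day 12 the highest value was 0.84 FPKM in replicate 5 of Pass-IWP2, and the other 5 libraries were at 0.13 FPKM or less. On Day 16 it was lower in Pass-ctrl (log2FC -6.55 ± 1.63; edgeR, adjusted p = 0.0316, kept in 6 of 12 fits leaving out 1 library) and at least 52.7-fold lower in Pass-IWP2 (edgeR, adjusted p = 0.0207, kept in 8 of 12). CHRD, which encodes the BMP antagonist chordin, was at 3.13 FPKM in replicate 5 and at 0.87 FPKM or less in the other libraries.

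NOG, the gene of the BMP antagonist noggin, was at 6.00 and 5.68 FPKM in NP-IWP2, 11.0 and 8.26 FPKM in Pass-ctrl, and 7.79 and 11.5 FPKM in Pass-IWP2 on Day 12, with a log2FC of 0.81 and 0.73 (edgeR, adjusted p = 0.126 and 0.3). Without replicate 5 these were 0.80 and 1.07 and passed the test (edgeR, adjusted p = 0.0068 and 0.00412). LTBP1, which anchors latent TGF-beta in the matrix, was at 68.1 and 65.2 FPKM in NP-IWP2, 119 and 127 FPKM in Pass-ctrl, and 52.5 and 124 FPKM in Pass-IWP2 on Day 12. Replicate 5 was again the one passaged library at the static side. Without it LTBP1 was higher by 0.97 and 0.99 (edgeR, adjusted p = 7.59e-05 and 4.10e-04). On Day 16 static and passaged libraries overlapped for both genes. LTBP1 was then at 98.6 and 93.9 FPKM in NP-IWP2 and at 81.5 to 112 FPKM in passaged libraries, and NOG at 3.51 and 3.84 against 3.57 to 4.29 FPKM. Neither was called between passaged and static cells on Day 16 with 12 libraries. BAMBI, a pseudoreceptor that blocks type I receptors, was at 134 to 197 FPKM on Day 12 and 93.0 to 120.3 FPKM on Day 16 and was not called between passaged and static cells.

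Whether the difference from static culture itself changed between the days was tested as an interaction of treatment and day. In Pass-ctrl 4 genes were called with a difference that moved downward and 1 with one that moved upward, against 0.308% and 0.174% of all genes tested (0.482% together). In Pass-IWP2 there were 5 and 1, against 1.06% and 0.774% (1.84% together). ID1, ID3, ID4 and FST were called in both passaged groups, which share the static libraries.

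The difference of ID4 moved by -2.84 ± 0.35 in Pass-ctrl (edgeR, adjusted p = 0.0207) and by -3.82 ± 0.35 in Pass-IWP2 (edgeR, adjusted p = 0.00624). For ID1 the values were -2.07 ± 0.29 (edgeR, adjusted p = 0.0234) and -2.03 ± 0.29 (edgeR, adjusted p = 0.015), and for ID3 they were -1.81 ± 0.25 (edgeR, adjusted p = 0.0229) and -1.80 ± 0.25 (edgeR, adjusted p = 0.0141). FST moved the other way, by 2.11 ± 0.36 (edgeR, adjusted p = 0.0478) and 1.89 ± 0.36 (edgeR, adjusted p = 0.0365). TGFB2 was called in Pass-ctrl (-3.01 ± 0.52; edgeR, adjusted p = 0.0478), and TGFBR1 (-1.62 ± 0.30; edgeR, adjusted p = 0.0319) and TGFBR3 (-1.60 ± 0.25; edgeR, adjusted p = 0.0193) in Pass-IWP2.

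Each of these 11 calls was lost in some fit that left out 1 library. ID4 in Pass-IWP2 was lost in 1 of 12, without NP-IWP2 replicate 1 of Day 12 (edgeR, adjusted p = 0.0628), and FST was lost in 10 of 12 in both groups. The signs did not change in these fits. Without replicate 5, 11 genes were called in Pass-ctrl (3 upward and 8 downward, with 3.57% and 4.05% of all genes) and 12 in Pass-IWP2 (2 and 10, with 3.86% and 4.03%), and the values of ID4 were -2.84 and -3.34.

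**Figure D4:**
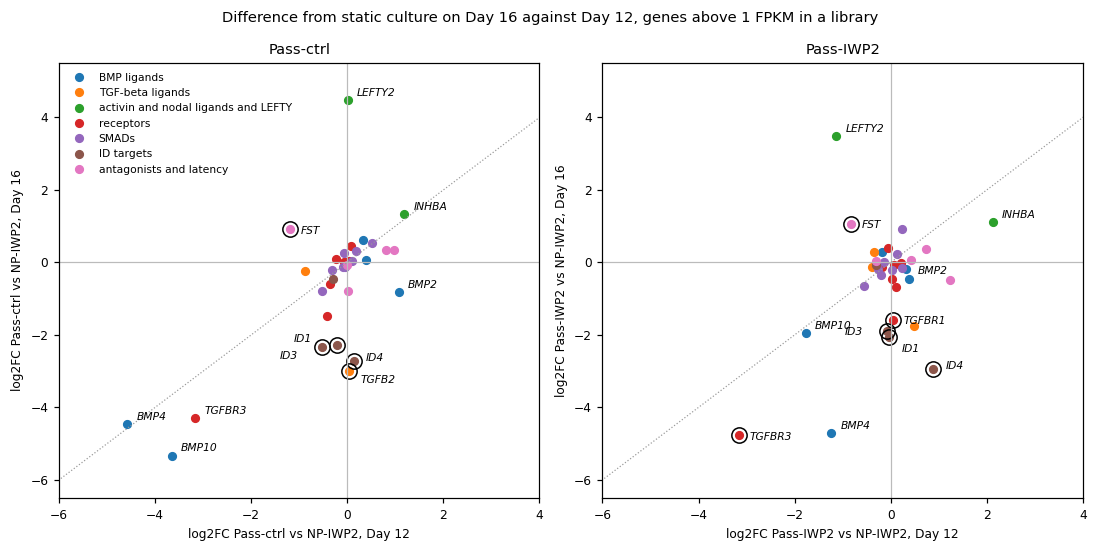
Log2FC of passaged against static cells on Day 16 (vertical axis) against Day 12 (horizontal axis) for the 35 genes above 1 FPKM in some library, for Pass-ctrl (left) and Pass-IWP2 (right). Colors give the role of a gene, the dotted line marks equal values on both days, and black rings mark the genes called in the interaction test. On the Day 16 axis ID1, ID3 and ID4 lie between -2.93 and -1.88, below the dotted line, FST is below 0 on Day 12 and above 0 on Day 16, and TGFBR3 is at -3.15 or lower on both axes.

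Pass-IWP2 and Pass-ctrl, which differ in IWP2 among passaged cells, were also compared directly. With 12 libraries 0 of 41 genes were called on either day by edgeR, with 0.0% of all genes tested. At an unadjusted p under 0.05 there were 10 genes on Day 12 and 6 on Day 16, against 10.6% and 8.03% of all genes tested. DESeq2 called 1 on each day, against 0.952% and 0.591% of its genes, and edgeR without its filter called 9 and 3, against 4.18% and 1.6%. BMP10 had 0.00 and 0.04 FPKM in Pass-ctrl and 0.15 and 0.26 FPKM in Pass-IWP2 on Day 16, and its log2FC of 3.38 was the 1 call made on that day without replicate 5 (edgeR, adjusted p = 0.03; 1.64% of all genes were called higher, 2.49% in either direction). With 1 library left out in turn this log2FC ran from 2.49 to 7.66. For the ID genes the Day 16 difference had a 95% interval of -0.24 to 0.70 for ID1, 0.06 to 0.72 for ID2, 0.05 to 0.85 for ID3 and -0.77 to 0.34 for ID4 on the log2 scale, and none passed the adjusted test (edgeR, adjusted p from 0.539 to 0.885).

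Over time, 5 of the 41 genes changed in static cells from Day 12 to Day 16 (1 higher and 4 lower, against 0.877% and 1.1% of all genes tested, 1.98% together). In Pass-ctrl there were 16 (4 higher and 12 lower, against 6.79% and 6.81%, 13.6% together), and in Pass-IWP2 20 (3 higher and 17 lower, against 12.9% and 14.1%, 27.0% together). Without replicate 5 the counts were close to each other, with 22 in static cells (9 higher and 13 lower, against 9.23% and 7.91%, 17.1% together), 20 in Pass-ctrl (6 and 14, against 15.1% and 14.1%, 29.2% together) and 22 in Pass-IWP2 (5 and 17, against 12.4% and 11.3%, 23.7% together). The genes called in all 3 treatments with 12 libraries were INHBA, which rose, and SMAD6, SMAD9 and ID2, which fell. SMAD6 fell by 0.96 in static cells, 1.25 in Pass-ctrl and 1.08 in Pass-IWP2 on the log2 scale (edgeR, adjusted p = 0.0112, 6.49e-04 and 8.41e-04).

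With all 12 libraries both passaged groups, but not the static group, had calls over time for ID1, ID3, ID4, BMP2, TGFB2, LEFTY2, TGFBR3, BMPR2, NOG and CHRD. ID1 fell by 2.09 and 2.05, ID3 by 2.33 and 2.32, and ID4 by 2.07 and 3.05 in Pass-ctrl and Pass-IWP2 (edgeR, adjusted p from 4.20e-04 to 0.00168). BMP2 fell by 3.35 and 2.29 (edgeR, adjusted p = 0.00326 and 0.00868), NOG by 1.04 and 0.92 (0.0365 and 0.0346) and CHRD by 2.53 and 3.43 (0.0171 and 0.00331). BMPR2 rose by 0.66 and 0.50 (edgeR, adjusted p = 0.0159 and 0.0271). In fits leaving out 1 library, the BMPR2 calls were lost in 4 and 6 of 12 and those of NOG in 8 and 9. In Pass-ctrl the CHRD call was lost in 4 of 12 and that of TGFBR3 in 9. With total counts the BMPR2 rises were 0.40 and 0.07 (edgeR, adjusted p = 0.135 and 0.747). Without replicate 5 the log2FC in Pass-IWP2 was -2.93 for BMP2, -2.39 for CHRD and -2.57 for ID4. In Pass-ctrl alone SMAD3 was called higher (0.56, edgeR adjusted p = 0.038) and BAMBI lower (-0.71, edgeR adjusted p = 0.0469). These calls were kept in 3 and 2 of 12 fits leaving out 1 library. In Pass-IWP2 alone ACVR2B was called lower (-0.45, edgeR adjusted p = 0.0373), a call kept in 2 of 12 such fits. BMP4, BMP6, TGFBR1, ACVR1 and GREM1 were also called lower over time in Pass-IWP2 alone. Without replicate 5 the log2FC was -1.04 for BMP4, -0.51 for TGFBR1 and -0.66 for ACVR1. BMP6 and GREM1 had no reads in Pass-IWP2 on Day 16. The difference between the passaged groups was not tested. Of the 10 genes called in both passaged groups and not in static cells, only ID1, ID3 and ID4 were called in the interaction test in both passaged groups. TGFB2 and TGFBR3 were called in 1 each. For the other 5 a difference from the static group in the change over time was not shown with 12 libraries. Without replicate 5 the interaction of BMP2 passed the test in both passaged groups. That of LEFTY2 passed in some alternatives. In fits leaving out 1 library it ran from 3.71 to 6.15 in Pass-ctrl and from 3.87 to 6.31 in Pass-IWP2. In NP-IWP2 BMP2 was at 55.5 and 52.4 FPKM on Day 12 and at 17.7 and 18.5 FPKM on Day 16, a fall of 1.46 that was called without replicate 5 (edgeR, adjusted p = 3.45e-05).

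Levels of markers of other cell types differed between the groups together with some of these genes. The summed level of 6 stromal markers (DCN, LUM, COL3A1, PDGFRA, POSTN and FBLN1) was 501 to 911 FPKM in the 4 static libraries, 508 FPKM in replicate 5 of Pass-IWP2 on Day 12, and 9.54 to 22.5 FPKM in the other 7 passaged libraries. That of 6 epicardial markers (WT1, TBX18, TCF21, ALDH1A2, UPK3B and BNC1) was 40.2 to 99.2 FPKM, 140 FPKM and 0.30 to 0.84 FPKM in the same order. BMP4 was at 23.0 FPKM or more in those 5 libraries and at 1.86 FPKM or less in the other 7, and BMPR1B was at 0.38 FPKM or more and at 0.12 FPKM or less in them. The sum of 8 hepatic endoderm markers (AFP, ALB, APOA1, TTR, AHSG, HNF4A, FOXA2 and TF) was 370 to 756 FPKM in static and 5.79 to 20.1 FPKM in all 8 passaged libraries, replicate 5 included, and TGFBR3 had the same split. In these bulk libraries, fewer cells of a type and less RNA per cell cannot be told apart, and the part of these cell types in the differences was not tested.

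Some, but not all, epicardial, stromal and hepatic markers were at or near 0 in passaged libraries. At most 3 reads were counted for 2 to 4 of the 6 epicardial markers in each of the 7 low libraries. The same held there for 1 or 2 of the 6 stromal markers. In the 8 passaged libraries it held for 2 to 6 of the 8 hepatic markers. Other markers were lower than in static libraries but detected. PDGFRA was at 2.6 to 6.6 FPKM and FBLN1 at 2.1 to 5.28 FPKM in the 7 low libraries. APOA1 was at 5.66 to 19.98 FPKM in the 8 passaged libraries. The cardiomyocyte sum was 2914 and 3597 FPKM in static and 7753 to 9594 FPKM in passaged libraries on Day 16, when LEFTY2 was high and ID1, ID3 and ID4 were low in the passaged cells. On Day 12 it was 4580 and 5182 FPKM in static, 4601 to 4925 FPKM in 3 passaged libraries and 2199 FPKM in replicate 5. The Day 16 difference in the sum was carried by MYH7 (351 and 695 FPKM in static, 2318 to 2637 FPKM in passaged libraries), MYL7 (1573 and 1836 against 3646 to 5369 FPKM) and PLN (135 and 177 against 605 to 1038 FPKM). In the same list MYH6 was at 417 and 436 FPKM in static and 71.0 to 146 FPKM in passaged libraries, and TNNT2 overlapped at 74.8 and 87.8 against 78.7 to 106 FPKM. Mitochondrial genes took 9.64% and 10.4% of the reads in static and 13.5% to 15.8% in passaged libraries on Day 16, where ID1, ID3 and ID4 were low, against 9.37% and 9.70% in static libraries, 11.9% to 12.4% in 3 passaged libraries and 6.97% in replicate 5 on Day 12. The part of these shifts in the Day 16 differences was not tested either.

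**Figure D5:**
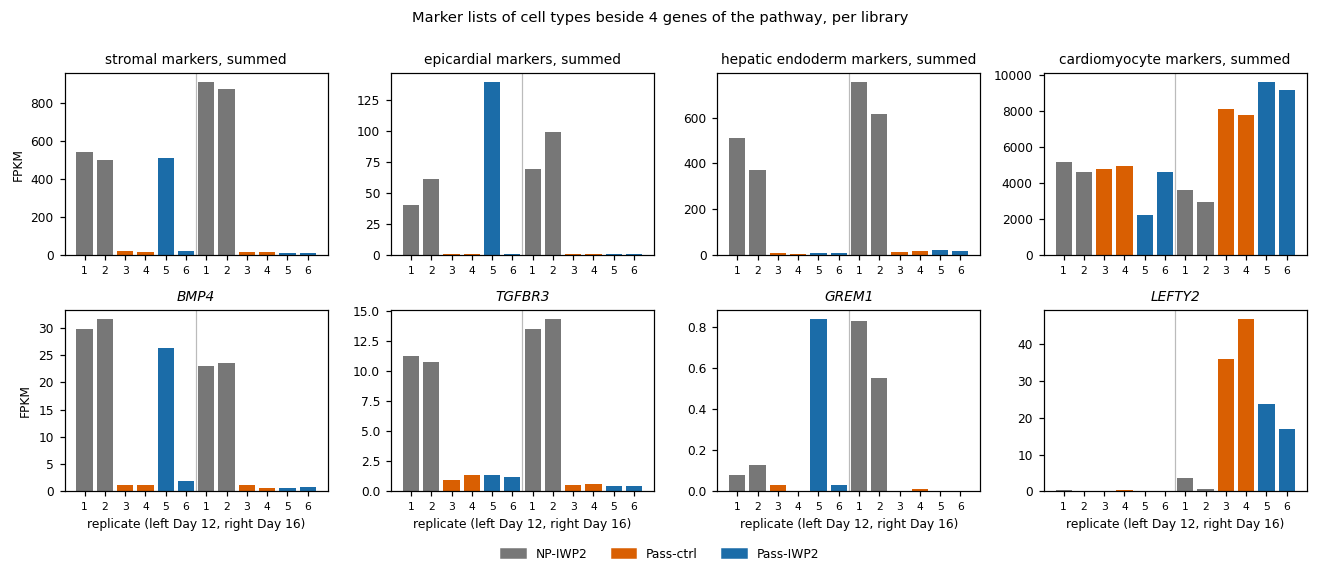
Summed level (FPKM, bars from 0) of 4 marker lists in the upper row and the level of BMP4, TGFBR3, GREM1 and LEFTY2 in the lower row, 1 bar per library, with Day 12 left and Day 16 right of the grey line. Replicate 5 of Pass-IWP2 on Day 12 has a stromal sum of 508 FPKM and BMP4 at 26.3 FPKM, near the static libraries, while its TGFBR3 (1.36 FPKM) and hepatic sum (8.07 FPKM) are with the other passaged ones.

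Of 71 other genes of the pathway, 62 were tested. In Pass-ctrl 0 were higher and 9 lower on Day 12 (0.697% and 3.32% of all genes tested), and 0 were higher and 19 lower on Day 16 (5.39% and 9.86%). In Pass-IWP2 1 was higher and 2 lower on Day 12 (0.328% and 1.33%), and 3 were higher and 19 lower on Day 16 (7.15% and 9.95%). Between Pass-IWP2 and Pass-ctrl 0 were called on either day by edgeR with all 12 libraries. Over time 1 rose and 1 fell in static cells (0.877% and 1.1%), 4 rose and 10 fell in Pass-ctrl (6.79% and 6.81%), and 9 rose and 19 fell in Pass-IWP2 (12.9% and 14.1%). In the interaction test 0 were called in Pass-ctrl (0.482%) and 2, both downward, in Pass-IWP2 (1.06%).

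The largest called decreases on Day 16 in both groups were those of FBN1, TGFBI and SOSTDC1. FBN1 encodes fibrillin, a matrix protein that holds latent TGF-beta. It was at 22.1 and 21.8 FPKM in NP-IWP2, 0.29 and 0.17 FPKM in Pass-ctrl, and 0.11 and 0.13 FPKM in Pass-IWP2 on Day 16, and at 13.2 FPKM in replicate 5 of Day 12. Its log2FC was -6.35 and -7.25 (edgeR, adjusted p = 0.00847 and 0.00578). TGFBI, a matrix protein gene induced by TGF-beta, had a log2FC of -6.09 and -7.36 (edgeR, adjusted p = 9.58e-04 and 5.21e-04), and SOSTDC1, a gene for a secreted BMP antagonist, -5.90 and -8.55 (edgeR, adjusted p = 5.95e-04 and 3.62e-04). The genes called higher in Pass-IWP2 were FSTL3, a follistatin relative (1.85), GDF15 (1.59) and GDF11 (0.42), with edgeR adjusted p of 0.0273, 0.042 and 0.0379. FSTL3 was at 8.16 and 4.57 FPKM in NP-IWP2 and at 10.3 and 27.2 FPKM in Pass-IWP2 on Day 16. GDF15 was at 1.63 and 0.80 against 2.86 and 3.30 FPKM, and GDF11 at 8.82 and 9.93 against 10.55 and 10.14 FPKM. These log2FC values rest on TMM scaling. With total counts the median of all genes in this comparison was -0.31.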

How the data were processed

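RNA sequencing was analysed in 12 libraries of H1-derived cells, 2 for each of 3 treatments on 2 days. The deposited table gives a read count and an FPKM value per gene and library, both made by the authors. The submitters' processing notes name cutadapt 1.9.1, HISAT2 2.0.1, HTSeq 0.6.1, DESeq2 and the hg38 genome. The labels name the SMRTbell prep kit 3.0. The strand setting of the counting and the annotation release are not given in the sources used here. The deposited FPKM equalled the count divided by gene length and library total within 0.011 for 100.0% of values.

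Counts were tested with edgeR 4.0.16 (quasi-likelihood F test, TMM scaling) in R 4.3.3, in 1 fit over the 6 groups, on the 19505 of 61806 genes that passed filterByExpr. Of the genes in the table, 20417 had no symbol. P-values were adjusted by the Benjamini-Hochberg method over all genes tested, at a threshold of 0.05. The interaction contrast was the Day 16 minus the Day 12 difference. Python 3.11.15, pandas 2.3.3, numpy 2.4.6 and matplotlib 3.10.9 served for tables and plots. The procedure was tested on simulated data. Totals were 14885589 to 19176239 reads (median 16452289), and 3 counts, used as the floor for a group at 0, correspond to 0.156 to 0.202 CPM. Such floors cover counting error only.

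Genes called in at least 1 of the 4 comparisons of passaged with static cells were given with library values, or their ranges or limits, and the statistics of those calls. Genes called only over time or in an interaction were named with their log2FC and adjusted p, and other pathway genes by counts and the 3 largest called log2FC per direction on Day 16. INHBA, BMP2, NOG and LTBP1 were described further after their values were seen. The 42 genes and all lists were chosen with earlier results of these data known. Alternatives were other scalings (RLE, total counts), no filter, a fit on only the groups compared, DESeq2 1.42.0, a replicate block and leaving out each library in turn. Sequences came from RefSeq (GRCh38.p14), whose promoter table held 36 of the 42 genes.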

Additional observations from a re-analysis of the deposited data

Results flagged for a closer look

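For 7 genes the difference between passaged and static cells itself differed between Day 16 and Day 12 in a test of the interaction (edgeR, Benjamini-Hochberg adjusted over all genes). In Pass-ctrl the change in log2FC was -2.84 for ID4, -2.07 for ID1, -1.81 for ID3, -3.01 for TGFB2 and 2.11 for FST. In Pass-IWP2 it was -3.82 for ID4, -2.03 for ID1, -1.80 for ID3, -1.62 for TGFBR1, -1.60 for TGFBR3 and 1.89 for FST. Both groups were compared with the same static libraries. Each of the 11 calls was lost in at least 1 of the 12 fits that left out 1 library, and those of FST were also lost with total counts as the scaling.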

How the results depend on the processing

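The 89 called differences named here were recomputed under the alternatives, which gave 1562 values: 1187 kept direction and call, 375 kept the direction and lost the call, and 0 reversed. Of 40 differences not called, with 691 values, 559 stayed the same, 126 passed the test and 6 reversed. For ID1 between the passaged groups on Day 16 the log2FC was -0.06 without Pass-ctrl replicate 4, -0.01 without Pass-IWP2 replicate 5 and up to 0.59 in the other fits. The other 4 reversals arose without Pass-IWP2 replicate 6 of Day 12, which leaves replicate 5 alone in its group: on Day 12 in Pass-IWP2 BMP2 was then -0.81, BMPR1B 0.50 and LTBP1 -0.49, and the interaction of BMP2 was 0.36. Without replicate 5 the same values were 1.01, -3.51, 0.99 and -1.47.

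The number of genes called out of 41 moved more. Leaving out 1 library gave 1 to 17 in Pass-ctrl on Day 12, 9 to 22 on Day 16, 1 to 15 in Pass-IWP2 on Day 12 and 8 to 23 on Day 16. Between Pass-IWP2 and Pass-ctrl it gave 0 to 22 on Day 12 and 0 to 1 on Day 16. Over time it gave 0 to 22 in NP-IWP2, 9 to 20 in Pass-ctrl and 9 to 28 in Pass-IWP2, and for the interactions 0 to 11 and 0 to 21. A group left with 1 library was assumed to vary like the other groups. Without the filter the counts were 15 and 20 in Pass-ctrl on Day 12 and Day 16, 8 in Pass-IWP2 on Day 12, 9 and 3 between the passaged groups, 17 over time in NP-IWP2, and 10 and 15 for the interactions. With only the groups compared they were 20 and 21 in Pass-ctrl, 0 in Pass-IWP2 on Day 12, 1 between the passaged groups on Day 16, 27 over time in NP-IWP2, 0 in Pass-IWP2, and 11 and 3 for the interactions. DESeq2 gave 4 in Pass-IWP2 on Day 12, 1 between the passaged groups on each day and 11 over time in NP-IWP2, and RLE gave 3 for the Pass-ctrl interaction. The cause was not tested. Shares over all genes are not given for most of these settings, and they moved too. Without the filter, 4.18% of all genes were called between the passaged groups on Day 12, against 0.0% with it. These counts therefore describe how stable the calls are, and no result about the pathway is drawn from them.

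Total counts moved the median log2FC of all genes on Day 16 to -0.25 and -0.31, and the calls on Day 16 to 1 higher and 13 lower in Pass-ctrl and 1 higher and 14 lower in Pass-IWP2. The shares called over all genes are not given for this scaling, so no result about the pathway is drawn from these counts. Replicate numbers recur across the days only. Deviations of same-numbered libraries correlated at 0.075, -0.002 and -0.031 in NP-IWP2, Pass-ctrl and Pass-IWP2, so the numbers were not taken as pairs. With the replicate block the Pass-ctrl interaction had 1 call. Genes at or near 0 in a group, such as BMP6, BMP10 and GREM1, are limited by depth.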

Other observations

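Replicate 5 of Pass-IWP2 on Day 12 also stood apart in a co-receptor of nodal that is not among the 42 genes. TDGF1 was at 0.21 FPKM in it and at 6.69 to 28.1 FPKM in the other 11 libraries, while NODAL itself was at 0.52 FPKM in it and at 0 to 0.61 FPKM elsewhere. TDGF1 was chosen after its values were seen.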
